A study of Vitis vinifera with 72 samples.

Results

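Sangiovese and Cabernet Sauvignon, both black-berried cultivars of grapevine (Vitis vinifera), were compared in berry pericarp at mid-ripening (MR, BBCH code 83) from the growing area of Montalcino. BBCH codes number the steps of plant development, and MR is the stage at which berries gain colour. The comparison used 12 of the 72 libraries of the series. They were chosen by their labels alone, and comprised 6 Sangiovese and 6 Cabernet Sauvignon libraries. Each cultivar had 3 libraries from the 2011 season and 3 from the 2012 season. The remaining libraries came from the pre-veraison stage (PV, BBCH code 79) or from the areas of Bolgheri and Riccione. Those of Montalcino at PV, and those of Bolgheri and Riccione at MR, were the reference for 2 further comparisons. All 72 libraries entered the fit, so the remaining ones also shaped the spread behind each limma p-value and the choice of genes tested. The labels give no treatment, clone, rootstock or vineyard for these groups. They give no replicate number or sequencing batch either, so year and any batch that coincides with it cannot be told apart.

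The pericarp is the skin and flesh of the berry. During ripening it softens, stores sugar, loses organic acids and, in black cultivars, builds up anthocyanin pigments in the skin. Cultivars can reach these states at different speeds, so berries of the same BBCH code need not be at the same physiological point. In whole tissue, fewer cells of a type and less RNA per cell cannot be told apart.

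The deposited values were FPKM, which count the sequenced fragments of a gene relative to its transcript length and to the size of the library. The files hold gene IDs that are not paired with names, and 0 of the 29971 IDs matched the gene table at hand. Genes are therefore given by ID, at most 2 in each direction for each comparison, with no name or function. For the same reason the tissue could not be checked against defining marker genes.

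The 12 libraries separated by cultivar first and by year second. The first principal component of log2(FPKM + 1) held 54.3% of the variance. Sangiovese libraries lay between 45.2 and 51 on it, and Cabernet Sauvignon libraries between -53.5 and -38.5. The second component held 17.7% and placed all libraries of 2011 above 0 and all of 2012 below 0. The lowest correlation between replicates of a group was 0.979 across genes, and no 2 libraries held identical values.

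**Figure D1:**
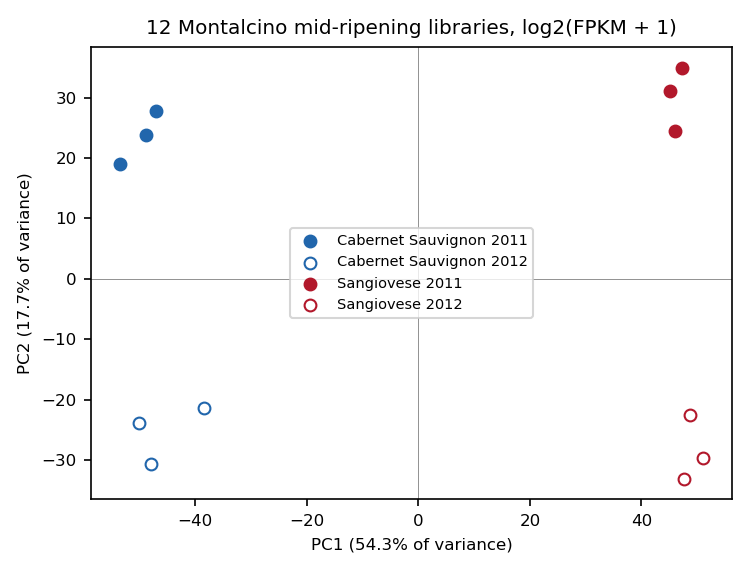
Principal components of the 12 Montalcino MR libraries, with 1 point per library, cultivar by colour and year by filled (2011) or open (2012) symbols. The cultivars lie on opposite sides of 0 on the horizontal axis (54.3% of variance), and the years on opposite sides on the vertical axis (17.7%).

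Sangiovese libraries held more genes at 1 FPKM or above. The mean was 16270 ± 179 for Sangiovese against 15930 ± 206 for Cabernet Sauvignon (SD, n = 6 each), with an exact permutation p of 0.02, two-sided, cultivar labels permuted within year. The ranges overlapped, from 16091 to 16535 in Sangiovese and from 15691 to 16216 in Cabernet Sauvignon. The 10 most abundant genes took 19.95% ± 2.13 of total FPKM in Sangiovese and 22.12% ± 1.90 in Cabernet Sauvignon (SD, n = 6, exact permutation p = 0.08). The smallest p that the 400 arrangements allow is 0.005. Total FPKM ran from 857605 to 974849. The number of reads per library is unknown. Relative depth, estimated from the steps between low values, was 0.815 to 1.28 in Sangiovese and 0.754 to 0.976 in Cabernet Sauvignon. The part of depth or of scaling in the number of genes detected was not tested.

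Expression differed between the cultivars in most of the genes tested. Of 20443 genes, 12687 (62.1%) passed an adjusted p of 0.05 in limma. Of these, 8812 (43.1% of the genes tested) were higher in Sangiovese and 3875 (19.0%) were lower. Most differences were small: 1047 genes (5.12%) were higher and 684 (3.35%) lower by at least 1 on the log2 scale. At a difference of at least 3 there were 68 and 58 genes, and at a difference of at least 5 there were 11 and 8.

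The excess of higher calls depended on how the libraries were scaled. The median log2 difference over all genes was 0.12 in Sangiovese's favour, and 69.5% of called genes were higher. After median-of-ratios scaling the median was 0.0011, and 5928 genes were higher against 5934 lower, a share of 50%. Quantile normalization gave 5990 higher and 5752 lower, a share of 51%. Both methods bring the libraries to a common level, which pulls the median towards 0 and the split towards even by construction. They therefore cannot tell a shift of scaling from a shift of expression. FPKM is relative within a library, so small differences have no settled direction here. The value of 0.12 is a median over all genes and sets no limit on the effect of scaling. Among genes with a mean of 1 to under 10 FPKM the median was 0.164. At 10 to under 100 FPKM it was 0.156.

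All 6 libraries of one cultivar lay above all 6 of the other for many genes. In 4347 genes (21.3% of those tested) every Sangiovese library was above every Cabernet Sauvignon library, and in 1837 (8.99%) every one was below. These counts hold for the scaling as deposited and were not repeated at another, so their imbalance has the same limit.

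Calls were spread over the range of abundance. Among genes with a mean of 10 to under 100 FPKM over the 12 libraries, 5674 of 8001 (70.9%) were called. Among those at 100 FPKM or more the count was 909 of 1351 (67.3%), and below 1 FPKM it was 1414 of 3972 (35.6%). At the scaling as deposited, the most abundant class had 548 genes higher and 361 lower in Sangiovese. At a difference of at least 1 on the log2 scale this class had 50 higher and 60 lower.

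Some genes were listed in one cultivar and at 0 in the other. Of all 29971 IDs, tested or not, 35 had all 6 Sangiovese libraries at 1 FPKM or above and all 6 Cabernet Sauvignon libraries at 0. The reverse held for 27 genes. With a minimum of 10 FPKM the counts were 5 and 3. In all 36 libraries of the other cultivar, 4 of the 35 and 5 of the 27 were at 0. A 0 in these values may be a failed estimate. In 93 of the 20443 genes tested, a library at 0 stood beside a replicate of the same group at 10 FPKM or more. Of these 93, 28 were called for the cultivar difference, whereas 62.1% of all genes tested were. Whether sequence differences between a cultivar and the reference genome lowered any value was not tested.

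The largest difference towards Sangiovese was in VIT_11s0052g01770. Its Sangiovese values were 185.6, 160.6 and 191.2 FPKM in 2011 and 136.2, 172.6 and 166.6 FPKM in 2012. Cabernet Sauvignon was at 0 in 5 libraries and at 0.951 FPKM in the other. The groups did not overlap, which the choice of the IDs for this comparison required. The log2 difference of FPKM + 1 was 7.24 (SE 0.15, limma adjusted p = 1.6e-40). The gene was also high before ripening, at group means of 92.5 and 75.8 FPKM in Sangiovese PV berries of 2011 and 2012. In Bolgheri and Riccione, Sangiovese MR means ran from 143.3 to 202.1 FPKM and Cabernet Sauvignon means from 0 to 0.293 FPKM.

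VIT_13s0064g00350 had the next largest difference in that direction. Sangiovese ran from 150.6 to 313.6 FPKM with a median of 174.4, whereas 5 Cabernet Sauvignon libraries were at 0. The remaining one, from 2011, was at 18.6 FPKM, so a replicate group held both 0 and a value above 10. The log2 difference was 6.89 (SE 0.37, limma adjusted p = 1.3e-22), again with no overlap by the choice of IDs.

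In the opposite direction, VIT_05s0094g00350 differed most. Cabernet Sauvignon held 4073, 3479 and 3993 FPKM in 2011 and 2636, 2902 and 2284 FPKM in 2012. Sangiovese held 0.0813, 0.0322 and 5.86 FPKM in 2011 and 0.0497, 0.192 and 2.01 FPKM in 2012. The means were 3228 ± 736 and 1.37 ± 2.33 FPKM (SD, n = 6), and the Sangiovese mean rests largely on the library at 5.86 FPKM. The log2 difference of FPKM + 1 was -10.82 (SE 0.50, limma adjusted p = 2.2e-25).

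For VIT_04s0008g03700, every one of the 6 Sangiovese libraries was listed at 0. Cabernet Sauvignon held 92.2, 233.7 and 329.7 FPKM in 2011 and 280.6, 310.5 and 243.9 FPKM in 2012. The log2 difference was -7.86 (SE 0.34, limma adjusted p = 1.2e-26), and no fold is given against 0. Sangiovese group means were also 0 at PV in Montalcino and at MR in both other areas, where Cabernet Sauvignon means ran from 303.4 to 365.3 FPKM at MR. The ID was among the 3 genes counted above with a minimum of 10 FPKM in Cabernet Sauvignon. None of the 3 was at 0 in all 36 Sangiovese libraries, so some PV library of Bolgheri or Riccione was above 0.

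**Figure D2:**
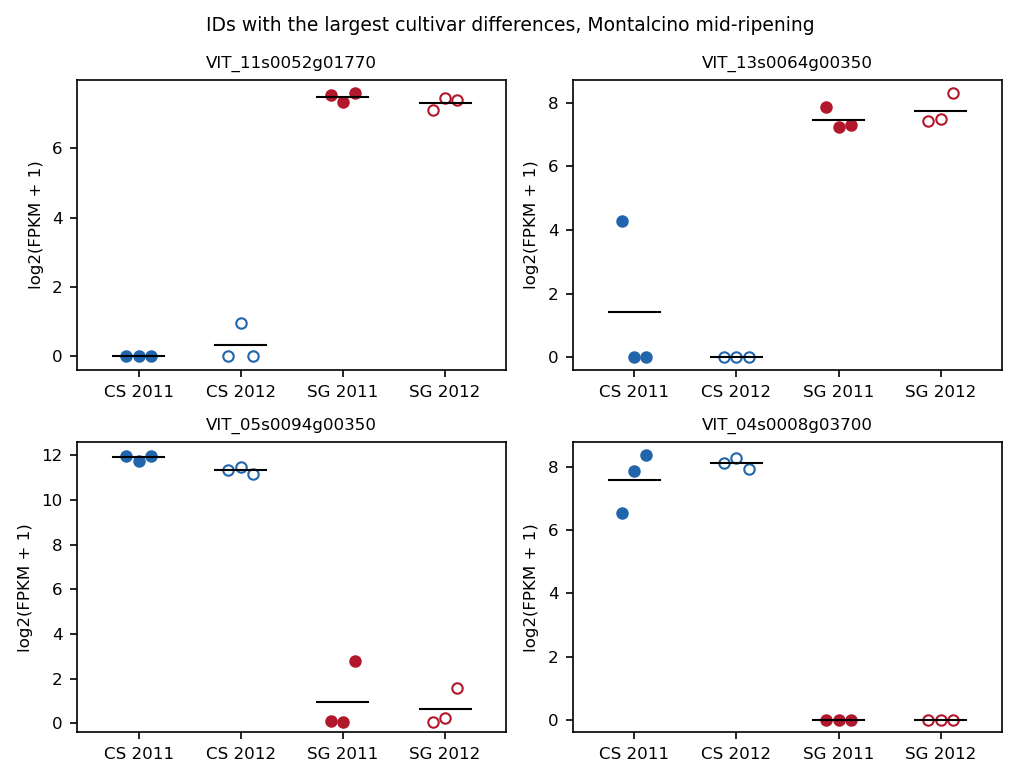
The 4 gene IDs with the largest cultivar differences each way, as log2(FPKM + 1) on the vertical axis for each Montalcino MR library (CS, Cabernet Sauvignon; SG, Sangiovese; lines are means of 3). In each panel all 6 libraries of one cultivar lie above all 6 of the other, as the choice of these IDs required.

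The seasons of 2011 and 2012 hold separate libraries, so each year gave its own estimate of the cultivar difference. In 2011, 10578 genes (51.7%) were called, 7413 (36.3%) higher and 3165 (15.5%) lower in Sangiovese. In 2012, 10695 genes (52.3%) were called, 7278 (35.6%) higher and 3417 (16.7%) lower. In both years and in the same direction, 7520 of the 20443 genes were called. They made up 71.1% of those called in 2011 and 70.3% of those called in 2012. With 51.7% and 52.3% of all genes called, lists of this size would share many genes in any case. The 7520 comprised 5321 higher (26% of the genes tested) and 2199 lower (10.8%) in Sangiovese. A further 217 of the 20443 genes were called in both years with opposite directions. Across genes, which are not independent replicates, the 2 differences had a Pearson correlation of 0.757 and a Spearman correlation of 0.687. With median-of-ratios scaling, which pulls the split towards even by construction, higher and lower calls were 4802 and 4835 in 2011. They were 4898 and 5209 in 2012.

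**Figure D3:**
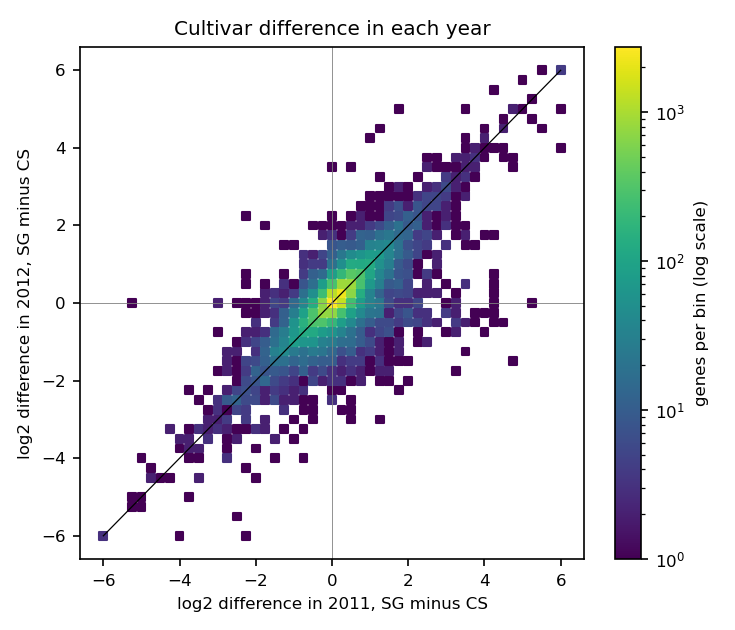
Log2 cultivar difference (Sangiovese minus Cabernet Sauvignon) in 2012 against that in 2011 over the 20443 genes tested, in bins of 0.25 with values past 6 drawn at 6, coloured by the number of genes. Most genes lie near the diagonal (Pearson 0.757), and a group of genes to the right of 0 in 2011 lies near or below 0 in 2012.

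The cultivar difference changed between the years in 2303 genes (11.3%), by a test of the difference itself. It was larger towards Sangiovese in 2012 for 1119 genes (5.47%) and in 2011 for 1184 (5.79%). This split turned after quantile normalization, to 1413 against 1113, and was 1135 against 1325 after median-of-ratios scaling. With the spread taken from the 12 libraries alone, 1644 genes were called and the split was 863 against 781. The split also moved with single libraries of Cabernet Sauvignon in 2012, to 898 against 1430 without replicate 2 and 1101 against 864 without replicate 3. Changes of at least 1 on the log2 scale were uneven, with 164 (0.802%) towards Sangiovese in 2012 and 443 (2.17%) towards it in 2011. Of the 2303 genes, 1101 had estimates of opposite sign in the 2 years, whatever their size. In 217 of the 2303 the opposite differences were each called. Another 732 had the same sign with the larger difference in 2012, and 470 the same sign with the larger one in 2011.

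VIT_11s0052g01200 was high in Sangiovese in 2012. It held 42.1, 42.6 and 51.5 FPKM there, against 0.721, 1.16 and 1.5 FPKM in Sangiovese of 2011. Cabernet Sauvignon held 0.484, 0.299 and 0.534 FPKM in 2011 and 2.47, 1.51 and 5.03 FPKM in 2012. The cultivar difference was 3.62 in 2012 and 0.55 in 2011 on the log2 scale, a change of 3.07 (SE 0.53, limma adjusted p = 4.6e-05).

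VIT_00s0179g00250 moved the same way. Sangiovese held 3.64, 6.78 and 10.2 FPKM in 2011 and 27.5, 23.7 and 43.2 FPKM in 2012, while no Cabernet Sauvignon library passed 2.62 FPKM. The change was 3.31 (SE 0.81, limma adjusted p = 0.0038).

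VIT_00s0527g00030 was high in Sangiovese in 2011 instead. It held 26.9, 45.6 and 72.9 FPKM in 2011 and 0, 0.957 and 3.17 FPKM in 2012. Cabernet Sauvignon held at most 2.97 FPKM in 2011, and in 2012 a single library reached 18.7 FPKM beside replicates at 0.0634 and 0. The change was -4.99 (SE 1.3, limma adjusted p = 0.0056). Without that library it was -3.58 with an adjusted p of 0.052.

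VIT_02s0087g00750 was high in 2 of 3 Cabernet Sauvignon libraries of 2012, at 60.4 and 39.7 FPKM, while the remaining replicate was at 0.811 FPKM. All other libraries were at 3.25 FPKM or less. The change was -4.32 (SE 0.79, limma adjusted p = 0.00014), and with the spread taken from the 12 libraries alone the adjusted p was 0.12.

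**Figure D4:**
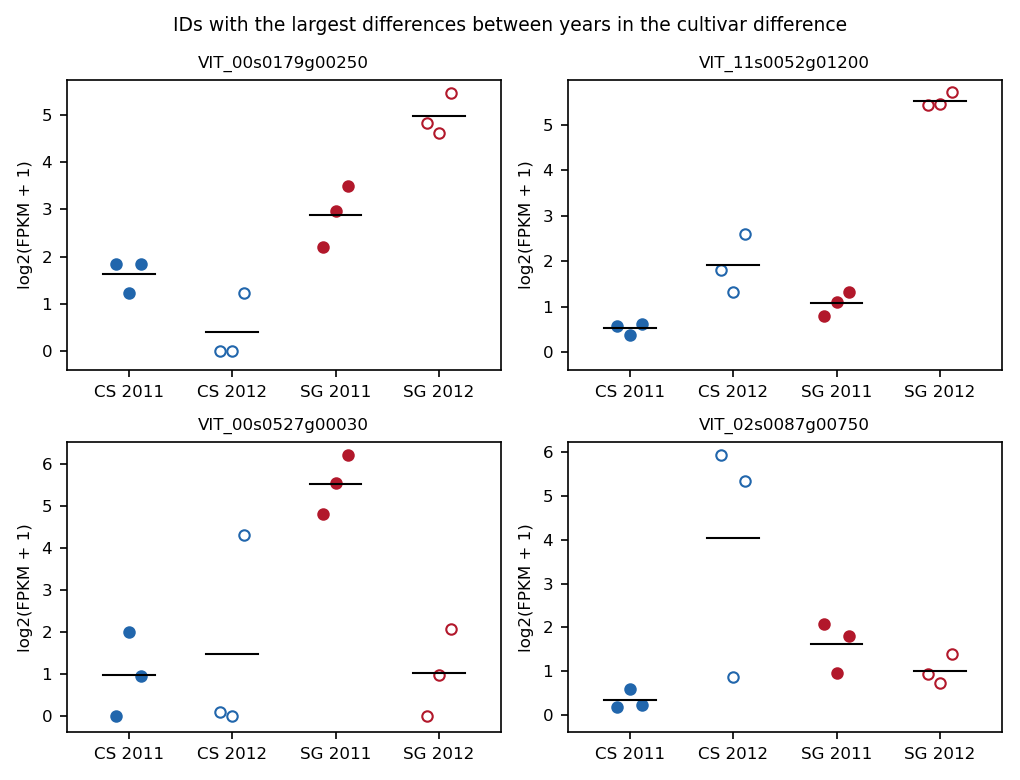
The 4 gene IDs with the largest changes of the cultivar difference between years, as log2(FPKM + 1) on the vertical axis for each Montalcino MR library (lines are means of 3). The upper panels are highest in Sangiovese of 2012, the lower left in Sangiovese of 2011, and the lower right in 2 of 3 Cabernet Sauvignon libraries of 2012.

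The cultivar difference in Montalcino was next compared with the mean of those in Bolgheri and Riccione at the same stage. It differed in 7638 genes (37.4%), shifted towards Sangiovese in Montalcino for 4738 (23.2%) and away from it for 2900 (14.2%). Most shifts were small, since 229 (1.12%) and 261 (1.28%) genes passed 1 on the log2 scale. Of the 7638 genes, 3186 had estimates of opposite sign in Montalcino and in the mean of the other areas, whatever their size. With median-of-ratios scaling the split was 3539 towards Sangiovese against 4039 away, and with quantile normalization 3749 against 3569. Both methods pull this split towards even by construction. Against Riccione alone, 5537 genes were called.

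The share of higher calls was largest in Montalcino among the 6 combinations of area and year, at the scaling as deposited. It was 70.1% in 2011 and 68.1% in 2012. In Riccione it was 64.3% and 62.6%, and in Bolgheri 62.2% and 53.5%. Bolgheri in 2012 also had the most genes called, 12025 (58.8%). These shares were not tested against each other.

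**Figure D5:**
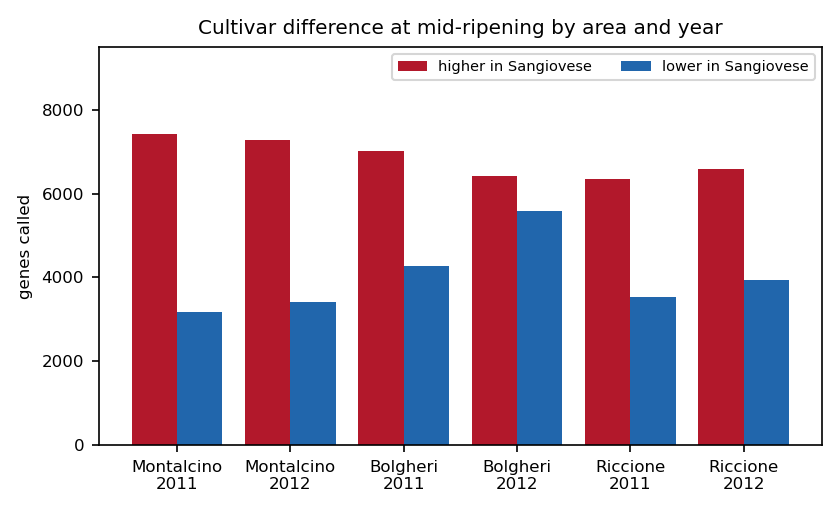
Genes called at MR as higher or lower in Sangiovese (vertical axis, number of genes) in each area and year, with 3 libraries per cultivar in each. The higher calls exceed the lower ones in every case, most in Montalcino (7413 against 3165 in 2011) and least in Bolgheri in 2012.

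VIT_02s0025g00280 shifted towards Sangiovese in Montalcino. Sangiovese held 25.8 to 67.3 FPKM there and Cabernet Sauvignon 5.32 to 47.8 FPKM, with overlap. The difference was 2.08 in 2011 (limma adjusted p = 7e-05) and 0.79 in 2012 (adjusted p = 0.13). Riccione in 2011 went the same way, with means of 371.9 FPKM in Sangiovese and 104.6 FPKM in Cabernet Sauvignon. Sangiovese was the lower cultivar in the other 3 cases, at 33.5 against 140.3 FPKM in Riccione in 2012, and at 146.1 against 902.3 and 7.04 against 47.1 FPKM in Bolgheri in 2011 and 2012. The shift was 2.74 (SE 0.38, limma adjusted p = 6.4e-08), and 1.38 against Riccione alone (adjusted p = 0.014). VIT_18s0041g02130 had a shift of 2.77 (SE 1.1, limma adjusted p = 0.039), but 2 Cabernet Sauvignon libraries were at 0 beside replicates of 9.92 FPKM or more. Its call was lost without any of 5 single libraries, with adjusted p from 0.054 to 0.14, and against Riccione alone, where the shift was 0.76 with an adjusted p of 0.73. Without Bolgheri 2012 the shift was 1.77 with an adjusted p of 0.25.

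VIT_05s0077g01540 shifted away from Sangiovese in Montalcino. Cabernet Sauvignon held 12.4, 24.96 and 29.3 FPKM in 2011 and 3.01, 7.36 and 3.11 FPKM in 2012. Sangiovese held 3.55, 0.877 and 20.8 FPKM in 2011 and 0.344, 0 and 0.435 FPKM in 2012. The shift was -3.23 (SE 0.50, limma adjusted p = 6.2e-07), and the Sangiovese mean in Bolgheri in 2012 was 117.2 FPKM against 0.478 to 5.91 FPKM in the other 3 cases. Without Bolgheri 2012 the shift was -1.60 (adjusted p = 0.013), and against Riccione alone it was -1.47 (adjusted p = 0.049). VIT_05s0077g01570 had a high Sangiovese mean in Bolgheri in 2012 too, 77.0 FPKM. In Montalcino, Sangiovese held 4.58, 1.26 and 32.7 FPKM of it in 2011 and at most 1.29 FPKM in 2012. Cabernet Sauvignon held 7.03 to 13.7 FPKM in 2011 and 4.07 to 6.03 FPKM in 2012. The cultivar difference of this ID there was -0.60 in 2011 (limma adjusted p = 0.51) and -2.07 in 2012 (adjusted p = 0.011). Its shift was -2.74 (SE 0.61, limma adjusted p = 0.00026), and without Bolgheri 2012 it was -1.32 with an adjusted p of 0.11. Against Riccione alone it was -1.21 with an adjusted p of 0.21.

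Finally, the cultivar difference at MR was compared with that at PV in the same area. It changed in 10943 genes (53.5%), towards Sangiovese at MR in 7072 (34.6%) and away from it in 3871 (18.9%). In 5494 of these the estimates had opposite signs at the 2 stages, whatever their size. By at least 1 on the log2 scale, 1156 genes (5.65%) changed towards Sangiovese and 739 (3.61%) away. With median-of-ratios scaling, which pulls the split towards even by construction, the split of all called genes was 5325 against 5278.

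VIT_03s0063g02360 and VIT_03s0063g02380 changed most towards Sangiovese, and did so through their PV values. VIT_03s0063g02360 had PV means of 450.4 and 407.7 FPKM in Cabernet Sauvignon of 2011 and 2012, against 0.171 and 0.413 FPKM in Sangiovese. At MR none of its 12 libraries passed 0.643 FPKM. The change was 8.48 (SE 0.22, limma adjusted p = 3.4e-35). VIT_03s0063g02380 had PV means of 252.1 and 248.7 FPKM in Cabernet Sauvignon and a change of 7.81 (SE 0.15, limma adjusted p = 5.8e-42). At MR neither ID passed the test between cultivars.

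VIT_05s0094g00350, described above for its difference at MR, changed most in the opposite direction. Its Cabernet Sauvignon PV means were 4.06 and 3.88 FPKM and its Sangiovese PV means 1.32 and 1.78 FPKM. The change was -9.73 (SE 0.71, limma adjusted p = 7.2e-17). VIT_10s0003g00100 followed with -6.23 (SE 2.7, limma adjusted p = 0.045). Its PV means in 2011 and 2012 were 73.3 and 0 FPKM in Cabernet Sauvignon and 185.3 and 58.3 FPKM in Sangiovese. At MR its cultivar difference of -2.52 was not called (limma adjusted p = 0.25). This ID was at 0 in 8 of the 12 MR libraries and between 175.3 and 230.5 FPKM in the other 4, with both kinds inside 3 of the 4 groups. Leaving out 1 of 8 single libraries raised its adjusted p to between 0.055 and 0.12.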

How the data were processed

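Berry pericarp RNA of 72 libraries was profiled with non-directional sequencing, so reads of overlapping genes on opposite strands cannot be told apart, and near-identical copies may share reads. The deposited FPKM values were made by the authors with CASAVA 1.8.2, TopHat2 2.0.9 and Cufflinks 2.1.1, per the submitters' processing notes. Their options, the build and the annotation used were not given in the sources used here. Each table column was matched to a library by its title number, and 0 columns were left over.

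Genes with a mean of at least 1 FPKM in at least 1 of the 24 groups were tested (20443 of 29971). Values were transformed to log2(FPKM + 1), which understates the change of low genes. limma 3.58.1 under R 4.3.3 was fitted to all 72 libraries with a mean per group, a spread that follows mean expression, and 48 residual degrees of freedom. Two-sided p-values were adjusted over all tested genes by the Benjamini-Hochberg method, with a threshold of 0.05. The method was also run on simulated data with independent normal noise around group means. These data held no scaling shift and no switching between 0 and high values, so neither was tested there. Single totals were compared by exact permutation within year. Relative depth came from 1668 genes with low values, where 95.6% of values under 3.5 reads were whole to within 0.1. P-values measure the spread between the labelled replicates.

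The comparison and the rules were chosen with earlier results of these data known. The plan had also named genes from lists of IDs recalled from published grapevine gene names. No file or table at hand pairs IDs with names, so those lists were not used, and the ripening check that relied on them was not made. Named IDs are the 2 largest called differences each way over all tested genes, rather than over those outside the lists. For the cultivar difference they also needed no overlap between cultivars and a mean of 10 FPKM or more in the higher cultivar; for the other comparisons, a group mean of at least 10 FPKM. Alternatives covered pseudocounts, filters, scaling, the spread, the libraries in the fit, a year block and each library left out. Comparisons with Riccione alone and without Bolgheri 2012 were added after seeing the data.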

Additional observations from a re-analysis of the deposited data

Results flagged for a closer look

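Effects that differed between years, areas or stages by a test of the difference itself (limma, adjusted p under 0.05) are listed here. The cultivar difference changed between 2011 and 2012 in 2303 genes, between Montalcino and the other areas in 7638, and between stages in 10943.

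Between years, the log2 change was 3.31 for VIT_00s0179g00250, 3.07 for VIT_11s0052g01200, -4.99 for VIT_00s0527g00030 and -4.32 for VIT_02s0087g00750. Between Montalcino and the other areas, it was 2.77 for VIT_18s0041g02130, 2.74 for VIT_02s0025g00280, -3.23 for VIT_05s0077g01540 and -2.74 for VIT_05s0077g01570. Between stages, it was 8.48 for VIT_03s0063g02360, 7.81 for VIT_03s0063g02380, -9.73 for VIT_05s0094g00350 and -6.23 for VIT_10s0003g00100.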

How the results depend on the processing

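Counts of called genes stayed within 1.5 times of those reported under every alternative run except a minimum size. With a log2 difference of at least 1, calls numbered 1731 for the cultivar difference, 1921 in 2011, 2011 in 2012, 607 by year, 490 against the other areas and 1895 by stage. Leaving out each library gave 12120 to 12545 calls, 9090 to 10628 in 2011, 9731 to 10682 in 2012, 1696 to 2328 by year, 7098 to 7456 against the other areas and 10544 to 10962 by stage. The split between directions moved with the scaling, and by year also with single libraries and with the spread of the 12 libraries alone, as given above. An additive year block on the 12 libraries gave 11782 calls. No paired analysis was possible because the labels give no replicate numbers. Depth is known only in relative terms, so values near 0 carry no counting interval. None of the named IDs reversed a call. In limma, beside the losses given above, VIT_00s0527g00030 lost its call with a pseudocount of 0.1 (adjusted p = 0.091) and with the spread of the 12 libraries alone (0.082). VIT_18s0041g02130 lost it with a pseudocount of 5 (0.052) and with no filter (0.051). VIT_10s0003g00100 lost it with no filter (0.057) and with the Montalcino libraries alone (0.057). A pseudocount of 5 moved the log2 change to 2.02 for VIT_00s0179g00250, -2.53 for VIT_02s0087g00750, -2.05 for VIT_05s0077g01540 and -1.61 for VIT_05s0077g01570. A pseudocount of 0.1 moved it to 5.41 for VIT_00s0179g00250 and 4.42 for VIT_18s0041g02130. The cause was not tested.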
